A study of Mus musculus with 24 samples.

Results

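The difference between 2 doses of tert-butylphenyl diphenyl phosphate (BPDP) was measured in limb buds cultured for 24 h. BPDP belongs to the organophosphate esters, which serve as flame retardants and plasticizers. The forelimb buds came from embryos of CD1 mice, an outbred stock, on gestation day 13 and were kept in culture with BPDP or with the solvent DMSO alone. Poly-A RNA of the whole limb bud was sequenced. The comparison uses 8 of the 24 libraries of the series, namely the 4 exposed to 10 µM BPDP for 24 h and the 4 exposed to 1 µM BPDP for 24 h, chosen by their labels. The other 16 are the DMSO controls at 24 h, which are used here as a reference, and DMSO, 1 µM and 10 µM BPDP at 3 h, with 4 libraries in each group. Every group was cultured, so no library shows the limb before culture, and the sources used here do not say whether the BPDP media held the same amount of DMSO as the controls. Whether replicates are separate litters, pools of buds or separate cultures is not given in the sources used here, so the p-values rest on the spread of these libraries alone, which may be technical.

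A mouse forelimb bud of this age holds condensing and young cartilage, undifferentiated mesenchyme, forming muscle, vessels, resident macrophages, blood cells and a covering of embryonic skin. The pathway named in the series title is hedgehog signalling. Secreted hedgehog proteins bind the receptor Patched, which frees Smoothened to activate the Gli transcription factors, and Gli1, Ptch1 and Hhip are themselves switched on by the signal. Sonic hedgehog patterns the digits, and Indian hedgehog, made by maturing chondrocytes, controls their proliferation together with the parathyroid hormone-related protein Pthlh. A further route that matters below is the integrated stress response. Stress kinases that sense, among other things, a lack of amino acids slow protein synthesis and raise translation of the transcription factor Atf4, which then induces transporters, amino acid enzymes and Ddit3 (CHOP).

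Total counts in the 8 libraries were between 14887622 and 19909986 over 25844 genes, of which 15407 passed the filter on low counts. The tissue was checked against markers. Prrx1, a limb mesenchyme gene, and Tbx5, the forelimb T-box gene, were at means of 435 and 254 CPM (counts scaled by the total of the library) with 1 µM and 419 and 265 CPM with 10 µM, against 18.7 and 21.0 CPM for the hindlimb gene Tbx4. Xist was near 0 in replicate 3 of both dose groups, so that 1 library in each group lacked it. The Y-linked genes Ddx3y, Eif2s3y, Kdm5d and Uty summed there to 183.3 CPM with 1 µM and 163.1 CPM with 10 µM. Each other library of the dose groups held both Xist (211.6 to 484 CPM) and these Y-linked genes (35.55 to 142.8 CPM), so RNA of both sexes was present in it. In a principal component analysis of the 12 libraries at 24 h, the first component held 22.3% of the variance and placed the 10 µM libraries between 18.25 and 37.92 and the 1 µM libraries between -27.31 and 10.16. The second component (18.5%) separated replicates 1 and 2 from replicates 3 and 4 in all 3 groups, a split that the labels do not name.

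With 10 µM BPDP, 211 genes were higher (1.37% of the genes tested) and 248 were lower (1.61%) than with 1 µM after 24 h, 459 in all or 2.98%, at an adjusted p under 0.05. At least 2-fold differences were found for 28 of the higher and 58 of the lower genes. The lists of known members described below held rises of genes of the integrated stress response and of amino acid transport. They also held falls of genes of macrophages and of the cell cycle. The median log2 fold change over all genes tested was -0.0028. Since libraries with the same replicate number deviated together, a fit with the replicate number as a block was made as well. It called 736 genes (312 higher, 424 lower), 439 of them among the 459. Counts of list members with the block stand beside these 736 genes, while the shares of all genes are those without the block. Within replicates 1 and 2 alone the count was 187, within replicates 3 and 4 alone 427. The count fell to 151 without 10 µM replicate 1, 227 without replicate 2, 197 without replicate 3 and 207 without replicate 4, and to 158 and 160 without 1 µM replicates 1 and 3. For comparison, 1 µM BPDP against DMSO at 24 h gave 12 called genes of 15578 (0.077%), 3 higher and 9 lower, and 10 µM against DMSO gave 963 of 15508 (6.21%; 430 or 2.77% higher and 533 or 3.44% lower). Groups that did not overlap were found for 11.4% of all genes between the doses, 3.48% between 1 µM and DMSO and 13.5% between 10 µM and DMSO. The comparisons with DMSO share libraries with the comparison of the doses, and each is given with its own values only. With the block, 10 µM against DMSO gave 1645 genes, and within replicates 1 and 2 alone 6, within 3 and 4 alone 953.

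Genes of the integrated stress response were higher at 10 µM. Of the 16 listed genes, 11 rose between 1 and 10 µM and none fell, with a median log2 fold change of 1.03 over the list beside 2.98% called among all genes. In the comparison of 1 µM with DMSO, 0 of the 16 were called by edgeR and the median was -0.10. The genes that rose were Atf4, Ddit3, Trib3, Chac1, Fgf21, Gdf15, Sesn2, Atf5, Asns, Ppp1r15a and Cebpb.

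Of these 16 genes, 4 with a C/EBP-ATF response element near the start of transcription are shown because this element is the DNA sequence bound by Atf4 with its C/EBP partners. The 250 bases upstream of the start site are printed from RefSeq (GRCm38.p6), on the strand of the gene, with the element in capitals.
Chac1, plus strand, chr2:119350992-119351241: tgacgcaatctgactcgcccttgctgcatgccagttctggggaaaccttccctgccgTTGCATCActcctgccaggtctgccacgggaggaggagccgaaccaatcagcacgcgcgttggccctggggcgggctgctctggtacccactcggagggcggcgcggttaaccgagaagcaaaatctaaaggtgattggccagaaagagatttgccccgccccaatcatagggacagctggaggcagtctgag
Fgf21, minus strand, chr7:45615491-45615740: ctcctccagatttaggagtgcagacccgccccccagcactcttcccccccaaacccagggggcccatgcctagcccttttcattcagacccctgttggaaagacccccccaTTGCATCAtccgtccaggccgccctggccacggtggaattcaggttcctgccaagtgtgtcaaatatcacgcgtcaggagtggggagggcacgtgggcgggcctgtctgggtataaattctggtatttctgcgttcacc
Asns, minus strand, chr6:7693210-7693459: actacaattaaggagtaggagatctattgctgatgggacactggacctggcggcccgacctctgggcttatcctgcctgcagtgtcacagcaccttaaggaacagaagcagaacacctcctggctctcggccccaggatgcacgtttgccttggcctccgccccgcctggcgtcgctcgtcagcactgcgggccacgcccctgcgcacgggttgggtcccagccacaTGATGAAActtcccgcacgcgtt
Atf3, minus strand, chr1:191183334-191183583: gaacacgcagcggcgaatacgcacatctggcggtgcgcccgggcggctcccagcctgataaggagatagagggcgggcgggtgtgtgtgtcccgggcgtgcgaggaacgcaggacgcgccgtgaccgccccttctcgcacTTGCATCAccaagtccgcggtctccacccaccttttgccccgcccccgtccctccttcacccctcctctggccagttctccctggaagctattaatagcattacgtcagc
The element searched was TGATGNAA, where N is any base, on both strands. Asns held it on the strand printed, and Chac1, Fgf21 and Atf3 held it on the opposite strand. Its first base in the printed sequence lay 193 bases before the start site in Chac1, 139 in Fgf21, 110 in Atf3 and 23 in Asns. All 16 genes had an entry in the promoter table, and 6 of them held a match in these 250 bases, the other two being Nupr1 and Vldlr. Among all 27025 gene symbols in that table a share of 3.9% held one. Matches were marked only for the motif searched for each gene's own list, so overlap with other motifs was not examined. A match is a description of the sequence, not evidence of binding.

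Atf4 encodes the transcription factor at the centre of this response. Its mRNA was at 159, 203, 178 and 193 CPM in 1 µM replicates 1 to 4 and at 304, 276, 329.6 and 272 CPM in 10 µM replicates 1 to 4. The DMSO libraries had 251, 215, 154 and 148 CPM. All 4 libraries at 10 µM lay above all others, while 1 µM and DMSO overlapped. The difference between the doses was log2 fold change 0.72, SE 0.093, adjusted p = 0.00165.

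Ddit3, the pro-apoptotic factor CHOP (chr10:127290774-127296288, plus strand), was at 11.2, 22.2, 15.8 and 21.7 CPM with 1 µM and 42.3, 37.7, 50.9 and 37.6 CPM with 10 µM. The ranges of the dose groups did not overlap (log2 fold change 1.28, SE 0.20, adjusted p = 0.0106). Trib3, a pseudokinase that Atf4 and Ddit3 induce and that restrains Atf4 (chr2:152337422-152344032, minus strand), rose from 8.3, 18.7, 12.1 and 17.5 CPM to 75.2, 44.6, 105 and 61.2 CPM. This is the second largest rise among the genes named (log2 fold change 2.38, SE 0.37, adjusted p = 0.0292). Its lowest library at 10 µM was replicate 2 and its highest replicate 3, a wide spread beside that of Atf4, and with the replicate block the adjusted p was 0.1. The call was lost without 10 µM replicate 1 or 4 or without 1 µM replicate 1, 3 or 4 (adjusted p up to 0.0876).

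Chac1, a glutathione-degrading enzyme, was at 9.85, 16.1, 10.2 and 13.7 CPM with 1 µM and 36.6, 22.5, 46.8 and 40.6 CPM with 10 µM (log2 fold change 1.59, SE 0.24, adjusted p = 0.0121). Without 1 µM replicate 1 the adjusted p was 0.0542. Of the secreted stress hormones, Fgf21 was at 3.92, 2.62, 0.85 and 3 CPM with 1 µM and 7.63, 7.31, 9.41 and 6.93 CPM with 10 µM (log2 fold change 1.62, SE 0.34, adjusted p = 0.0274). Gdf15 was at 1.56, 2.28, 1.27 and 1.11 CPM with 1 µM and 8.44, 6.86, 7.08 and 3.69 CPM with 10 µM (log2 fold change 2.10, SE 0.32, adjusted p = 0.00336). Both hormones were low in absolute terms. Their dose groups did not overlap, which the naming rule required of both. The call of Fgf21 was lost without any 1 of the 4 libraries at 10 µM (adjusted p up to 0.0792), that of Gdf15 in none of the 8 fits that left out a library.

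Sesn2, an inhibitor of the growth kinase mTORC1, rose by 0.93 (SE 0.13, adjusted p = 0.00336) and Atf5, a sister factor of Atf4, by 1.14 (SE 0.15, adjusted p = 0.00774) on the log2 scale. Asns, asparagine synthetase, was at 78.6, 99.1, 68 and 80.2 CPM with 1 µM and 148, 104, 168 and 148 CPM with 10 µM (log2 fold change 0.83, SE 0.17, adjusted p = 0.0435). With the block its adjusted p was 0.136, and it passed the threshold in 2 of the 8 fits that left out a library, those without 1 µM replicate 2 and without 10 µM replicate 2. Atf3 and Stc2 did not pass, at 1.22 and 1.18 with an adjusted p of 0.0557 for each, although the dose groups of both were apart. With the block Stc2 passed (adjusted p = 0.0437), as it did without 1 µM replicate 4 (0.000718), and Atf3 passed without 1 µM replicate 3 (0.0135). Asns, Atf3 and Stc2 were picked after their values were seen. Over the list, 6 to 12 genes rose when a library was left out, with 6 without 10 µM replicate 1, 7 without 10 µM replicate 3 and 7 without 1 µM replicate 1.

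**Figure D1:**
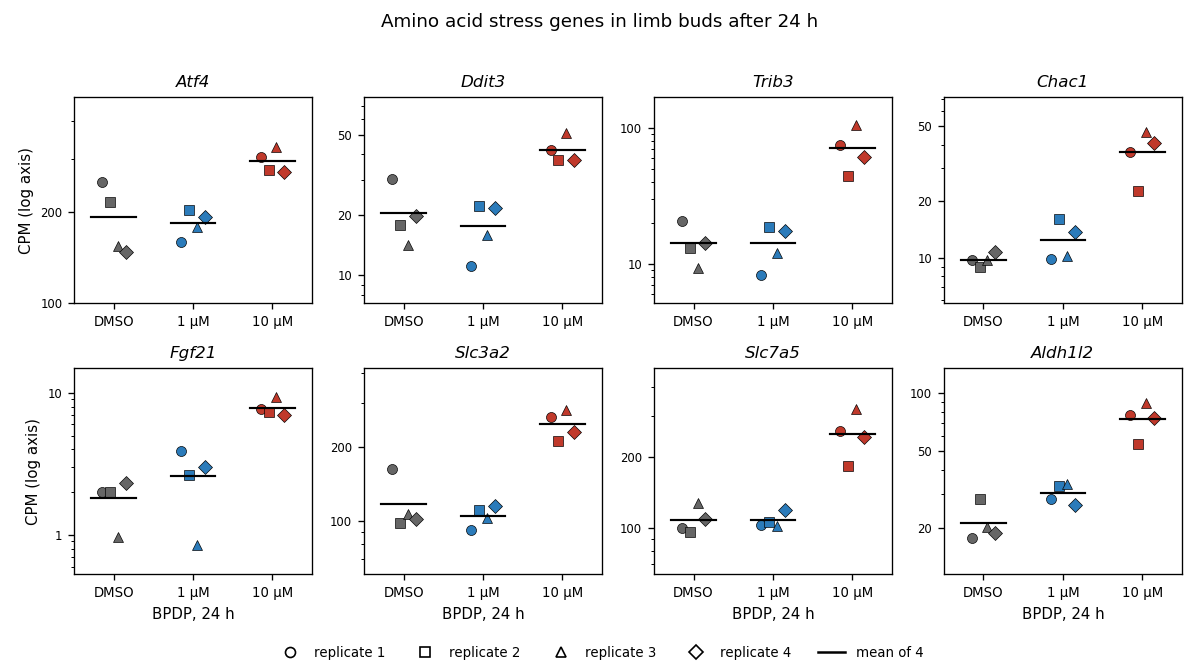
Level in CPM on a log axis for 8 genes of the integrated stress response, amino acid transport and folate enzymes at 24 h. There is 1 point per library, a marker shape per replicate and a line at the mean of 4. In each panel the 10 µM libraries lie above all 1 µM libraries, which the naming rule required of Trib3, Chac1 and Fgf21. The 1 µM libraries overlap the DMSO libraries in all 8.

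Amino acid transporters rose in part. Of the 12 listed, 6 were higher at 10 µM, beside 1.37% of all genes, 0 were lower, and the median was 0.57. Against DMSO the 1 µM libraries had 0 called by edgeR and a median of 0.03. Slc3a2, the heavy chain that carries several amino acid exchangers to the membrane (chr19:8706882-8723369, minus strand), was at 91.1, 111, 103 and 114 CPM with 1 µM and 265, 212, 281 and 229 CPM with 10 µM. It had the smallest adjusted p of any named gene (log2 fold change 1.27, SE 0.10, adjusted p = 7.53e-05). Its partner Slc7a5, the leucine exchanger LAT1, was at 102, 107, 102 and 119.5 CPM with 1 µM and 259.6, 184, 323 and 246 CPM with 10 µM (log2 fold change 1.26, SE 0.15, adjusted p = 0.00289). In both genes the highest library at 10 µM was replicate 3 and the lowest replicate 2, the order also seen in Trib3.

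Slc7a3 and Slc7a1, carriers of arginine and lysine, rose by 1.66 (SE 0.18, adjusted p = 0.000335) and 1.00 (SE 0.11, adjusted p = 0.000463). Slc6a9, a glycine transporter, rose by 1.02 (adjusted p = 0.00075) and Slc1a4, which carries serine and alanine, by 0.93 (adjusted p = 0.0019). All 6 kept their call in each of the 8 fits that left out a library. Their 1 µM levels were close to DMSO, for example 63.5, 70.0, 59.6 and 73.9 CPM against 63.2, 66.3, 66.6 and 65.6 CPM for Slc7a1 (log2 fold change 0.015, SE 0.099).

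Enzymes of serine, glycine and folate metabolism, listed together with some for cysteine and proline, rose in part. Of 13 enzymes 6 were higher, beside 1.37% of all genes, and 0 lower, with a median of 0.38. Aldh1l2, a mitochondrial folate enzyme, went from 28.3, 33.2, 33.6 and 26.2 CPM to 76.8, 54.6, 89 and 74.1 CPM (log2 fold change 1.31, SE 0.14, adjusted p = 0.00125). Mthfd2, the mitochondrial enzyme before it, was at 52.9, 74.2, 50.5 and 66.4 CPM with 1 µM and 116, 92.3, 149 and 121 CPM with 10 µM (log2 fold change 1.00, SE 0.18, adjusted p = 0.0261), and with the block the adjusted p was 0.0833. Cth, which makes cysteine, rose by 1.00 (adjusted p = 0.0126; 0.0526 without 10 µM replicate 1). Aldh18a1, for proline, rose by 0.39 (adjusted p = 0.0219), and Phgdh, the entry to serine synthesis, by 0.38 (adjusted p = 0.0359) with overlapping groups. The calls of Mthfd2, Aldh18a1 and Phgdh were lost without 10 µM replicate 1 or 4 and without 1 µM replicate 1 or 3, those of Aldh18a1 and Phgdh also without 10 µM replicate 3 and those of Mthfd2 and Phgdh without 1 µM replicate 4 (adjusted p up to 0.0904, 0.0802 and 0.114). With the block 4 of the 13 were called. The count was 1 without 10 µM replicate 1, 2 without 10 µM replicate 4, 3 without 10 µM replicate 3, 2 without 1 µM replicate 1 or 3, and 3 without 1 µM replicate 4. Within replicates 1 and 2 it was 1, within replicates 3 and 4 it was 5.

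Cytosolic aminoacyl-tRNA synthetases, which load amino acids on tRNA, were called in part. Of 18 enzymes 9 rose, beside 1.37% of all genes, and 0 fell. Of the 18 log2 fold changes 13 were positive and 5 negative (median 0.36). Between 1 µM and DMSO 0 were called by edgeR (median 0.05). The largest rises were those of Aars, the alanine enzyme (0.53, SE 0.087, adjusted p = 0.00622), Cars, the cysteine enzyme (0.53, SE 0.091, adjusted p = 0.00774), and Sars, the serine enzyme (0.52, SE 0.089, adjusted p = 0.00774). Yars and Lars, for tyrosine and leucine, were 0.47 and 0.34 higher, the latter with an adjusted p up to 0.0793 without 10 µM replicate 1, 3 or 4 or 1 µM replicate 3. For Aars, 10 µM gave 240.5, 206, 261 and 232 CPM against 178, 167, 158 and 158 CPM at 1 µM, groups that did not overlap. Within replicates 1 and 2 alone none of the 18 was called by edgeR, and within replicates 3 and 4 alone 11 were. The count was 5 without 1 µM replicate 1 and 4 without 1 µM replicate 3, 10 µM replicate 1 or 10 µM replicate 3.

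Other stress programmes are given beside the 2.98% of all genes that were called. The endoplasmic reticulum has its own response to unfolded proteins, and of its 15 listed genes 1 rose, Herpud1, a factor in degrading misfolded proteins (85.9, 72.5, 87 and 85.3 CPM with 10 µM, 45.8, 61.1, 46.5 and 56.5 CPM with 1 µM, log2 fold change 0.69, SE 0.11, adjusted p = 0.00431), and the median of the list was -0.06. NRF2 target genes gave 1 rise and 2 falls among 13. The rise was that of Hmox1, heme oxygenase (0.50, adjusted p = 0.021), and the falls were those of Nqo1, a quinone reductase (-0.61, adjusted p = 0.0378), and G6pdx, which supplies NADPH (-0.47, adjusted p = 0.008). Nqo1 was called in 1 of the 8 fits that left out a library, that without 1 µM replicate 4 (adjusted p up to 0.119 in the others), and Hmox1 was not called without 1 µM replicate 1 (0.0622) or 3 (0.0575). Nqo1 was also the 1 of 7 aryl hydrocarbon receptor targets that was called. Among 14 p53 targets 1 rose, Sesn2, which is also in the stress list, and with the block 2. Of the Bcl2 family, 1 of 13 rose (3 called with the block), Hrk, a death-promoting BH3-only protein, at 5.58, 3.6, 4.64 and 3.75 CPM with 10 µM and 0.864, 1.28, 1.65 and 1.61 CPM with 1 µM (log2 fold change 1.73, SE 0.30, adjusted p = 0.00783).

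Macrophage genes fell at 10 µM. Of 15 tested markers, 10 were lower, beside 1.61% of all genes, and none was higher, with a median log2 fold change of -1.18. Between 1 µM and DMSO the median was -0.01 and 0 were called by edgeR. The summed level of the 15 markers was 229.7 to 324.5 CPM in the 1 µM libraries, 240.1 to 322.4 CPM with DMSO, and 98.37 to 147.6 CPM with 10 µM, and none of the 15 was at 0 in the means of any 24 h group. At 3 h the sum had been 138.0 to 170.4 CPM with 1 µM and 121.9 to 155.8 CPM with 10 µM. The genes that fell were C1qa, C1qb, C1qc, Lyz2, Csf1r, Cx3cr1, Fcgr3, Ctss, Aif1 and Tyrobp. In whole limb buds, fewer macrophages and less RNA per macrophage cannot be told apart.

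C1qa, C1qb and C1qc encode the 3 chains of complement C1q, which macrophages make, and lie side by side on the minus strand of chromosome 4. C1qa (chr4:136895917-136898803) was at 36.2, 20.2, 29.4 and 25.4 CPM with 1 µM and 4.57, 6.97, 3.91 and 4.07 CPM with 10 µM (log2 fold change -2.48, SE 0.21, adjusted p = 0.000185). C1qb (chr4:136880129-136886187) was at 33.7, 20.8, 28 and 23.9 CPM with 1 µM and 6.58, 10.2, 5.99 and 6.3 CPM with 10 µM (log2 fold change -1.84, SE 0.19, adjusted p = 0.000308). C1qc (chr4:136889804-136893065) was at 31.3, 24.8, 27.7 and 22.6 CPM with 1 µM and 6.23, 10.6, 6.35 and 6.8 CPM with 10 µM (log2 fold change -1.80, SE 0.18, adjusted p = 0.000232). For each chain the highest library at 10 µM, replicate 2, was below the lowest at 1 µM, which the naming rule required of C1qa and C1qb.

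Csf1r, the receptor for the growth factor on which macrophages depend, was at 33.1, 20.3, 25.7 and 17.5 CPM with 1 µM and 8.24, 9.78, 5.25 and 5.91 CPM with 10 µM (log2 fold change -1.70, SE 0.23, adjusted p = 0.00336). Lyz2, lysozyme, was at 37.8, 33.4, 36.4 and 29.5 CPM with 1 µM and 7.79, 14.4, 9.47 and 9.03 CPM with 10 µM (log2 fold change -1.73, SE 0.17, adjusted p = 0.000242). Cx3cr1, the fractalkine receptor, was at 19.8, 9.14, 15.1 and 10.2 CPM with 1 µM and 1.1, 4.21, 2.38 and 3.82 CPM with 10 µM (log2 fold change -2.22, SE 0.39, adjusted p = 0.02). The call of Cx3cr1 was lost with the block (0.0832), without 10 µM replicate 3 (0.0759) and without 1 µM replicate 3 (0.0519), and those of C1qa, C1qb, C1qc, Csf1r and Lyz2 were kept in all 17 alternatives. Among the largest falls outside the list were 3 genes known from macrophages, Apoc1, a lipoprotein component (-2.10, adjusted p = 0.00938), Ms4a6b (-2.23, adjusted p = 0.0249) and the nucleotide receptor P2ry6 (-1.86, adjusted p = 0.0325). Apoc1 kept its call without each library in turn. Ms4a6b lost it without 10 µM replicates 1, 2 or 3 or 1 µM replicates 1 or 3 (adjusted p up to 0.0905), and P2ry6 without 10 µM replicates 1, 3 or 4 or 1 µM replicates 1, 3 or 4 (up to 0.136). Over the list, 6 of 15 were called without 1 µM replicate 1 or 10 µM replicate 3, and 5 within replicates 1 and 2 alone. Abcg1, a cholesterol exporter abundant in macrophages, fell as the 1 of 9 LXR targets that was called (-0.82, adjusted p = 0.038), and lost its call without any single library but 10 µM replicate 4 and 1 µM replicate 2 (up to 0.13).

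The cell cycle was the other large group of falls. Of 22 genes of the G2 and M phases 15 fell and none rose, with a median of -0.51. Of 22 genes of the G1/S step and DNA replication 16 fell and none rose, with a median of -0.50. Over all genes 1.61% were lower. All 44 had a negative log2 fold change. Between 1 µM and DMSO 0 of these genes were called by edgeR, with medians of -0.34 and -0.26. Between 10 µM and DMSO all 22 and all 22 were called lower (medians -0.83 and -0.74), beside 3.44% of all genes. The comparisons with DMSO share the libraries of each dose with the comparison of the doses.

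Mki67, the Ki-67 protein of dividing cells, was at 136, 162, 137 and 154 CPM with DMSO, 128, 104, 115 and 103 CPM with 1 µM and 75.3, 81.5, 77.7 and 82.9 CPM with 10 µM. The 3 groups did not overlap and stood in the order of the dose (log2 fold change -0.47, SE 0.081, adjusted p = 0.00774 between the doses). Between 1 µM and DMSO the edgeR fit without the block gave -0.40, adjusted p = 0.278. Plk1, a kinase of mitotic entry, was at 34.6, 33.3, 35.3 and 32.1 CPM with 1 µM and 22, 16, 19.7 and 19.8 CPM with 10 µM (log2 fold change -0.78, SE 0.11, adjusted p = 0.00238). Tpx2, a spindle assembly factor, fell by 0.63 (adjusted p = 0.00774) on the log2 scale.

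Cdk1 and Prc1, which both fell, are shown with their upstream sequence because it matches the letters of the cell cycle homology region. Many G2/M genes are regulated over the cell cycle through that element. Each match is again in capitals, in 250 bases from RefSeq (GRCm38.p6) on the strand of the gene.
Cdk1, minus strand, chr10:69352913-69353162: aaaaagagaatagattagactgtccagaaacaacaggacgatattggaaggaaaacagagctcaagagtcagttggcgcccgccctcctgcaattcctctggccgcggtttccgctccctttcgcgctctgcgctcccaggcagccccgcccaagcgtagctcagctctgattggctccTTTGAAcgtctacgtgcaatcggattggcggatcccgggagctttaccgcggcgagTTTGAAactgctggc
Prc1, plus strand, chr7:80294226-80294475: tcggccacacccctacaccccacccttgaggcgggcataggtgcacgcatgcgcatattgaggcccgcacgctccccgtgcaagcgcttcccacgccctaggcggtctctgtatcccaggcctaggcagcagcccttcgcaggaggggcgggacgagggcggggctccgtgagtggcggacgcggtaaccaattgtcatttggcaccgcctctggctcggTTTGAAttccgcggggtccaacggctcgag
The letters searched were TTTGAA on both strands, a short and common motif. The match lay 30 bases before the start site in Prc1, and Cdk1 had one match at 71 and another at 15 bases. Of the 19 G2/M genes with an entry, 8 held a match, beside 18.3% of all 27025 symbols. Aurkb, Kif20a and Tpx2 had no entry. For the replication genes, the E2F motif TTTCCCGC was found in Cdc6 and Mcm7 among 18 genes with an entry (1.0% of all symbols).

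Cdk1, the kinase that starts mitosis, was at 53.2, 47.2, 51.7 and 43 CPM with 1 µM and 31.9, 35.6, 32.2 and 29.7 CPM with 10 µM (log2 fold change -0.56, SE 0.094, adjusted p = 0.00732). Prc1, which bundles the microtubules of the midzone, was at 34, 31.4, 36.4 and 31.5 CPM with 1 µM and 22.3, 23.3, 21.6 and 22.9 CPM with 10 µM (log2 fold change -0.54, SE 0.093, adjusted p = 0.00783). In both genes every 10 µM library lay below every 1 µM library, and for Prc1 the 10 µM libraries hardly differed among themselves.

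Tyms, thymidylate synthase, which makes the DNA base T, was at 53.9, 46.2, 49.5 and 44.5 CPM with 1 µM and 24.9, 25.5, 28.9 and 28.2 CPM with 10 µM (log2 fold change -0.83, SE 0.097, adjusted p = 0.00075). Rrm2, the small subunit of ribonucleotide reductase, was at 50.8, 50.2, 54.4 and 45.4 CPM with 1 µM and 30.8, 24.4, 31 and 30.7 CPM with 10 µM (log2 fold change -0.75, SE 0.10, adjusted p = 0.00165). Mcm5, of the replicative helicase, was at 105, 79.5, 85.1 and 80.9 CPM with 1 µM and 57.8, 51.2, 47.3 and 52.4 CPM with 10 µM (log2 fold change -0.72, SE 0.098, adjusted p = 0.00173). Pcna, the sliding clamp of the polymerase, fell by 0.54 on the log2 scale. In each of these 4 genes the dose groups were apart.

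DNA repair genes, which cells transcribe mainly in S phase, showed 4 falls among 12, beside 1.61% of all genes. All 12 log2 fold changes were negative (median -0.53). Among the falls were Brca1 (-0.79, adjusted p = 0.0187), Fanca (-1.07, adjusted p = 0.0207) and Exo1 (-0.62, adjusted p = 0.0325). None of the 12 was called by edgeR without 1 µM replicate 1 or 3, and 2 were called without each of the 10 µM libraries in turn (adjusted p of these 3 genes up to 0.0966). Within replicates 1 and 2 alone, and within 3 and 4 alone, the count was 0. Ccnd1 (cyclin D1) was the only one of 11 tested D-type cyclins, partners and inhibitors that was called, and is described with the hedgehog genes. Over the 22 G2/M genes, 6 were called without 10 µM replicate 1, 7 without 1 µM replicate 1, 8 without 1 µM replicate 3 or 10 µM replicate 3, and 9 without 10 µM replicate 2 or 4. Within replicates 1 and 2 alone 2 were called, within replicates 3 and 4 alone 11. The G1/S counts were 9 without 1 µM replicate 1 and 10 without 10 µM replicate 3, and 6 and 12 within the pairs of replicates.

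**Figure D2:**
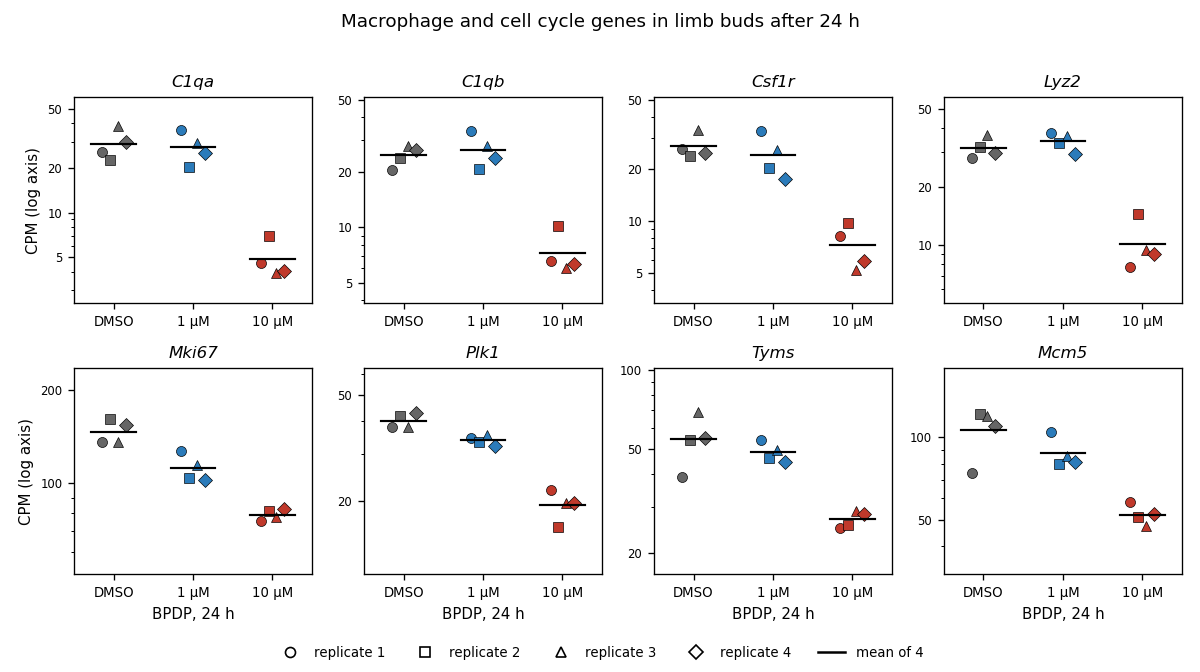
Level in CPM on a log axis for 4 macrophage genes (upper row) and 4 cell cycle genes (lower row) at 24 h, with 1 point per library and a line at the mean of 4. The macrophage genes are alike with DMSO and 1 µM and lower with 10 µM, and the means of the cell cycle genes step down at both doses.

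Of the 12 tested hedgehog targets, 2 fell between 1 and 10 µM, Ccnd1 among them, beside 1.61% of all genes, and the median was -0.34. Between 1 µM and DMSO 5 fell, beside 0.0578% of all genes, with a median of -0.79. Between 10 µM and DMSO 7 fell and 2 rose, beside 3.44% and 2.77%, with a median of -1.42. With the block, which called 736 genes in all, 5 of the 12 were called between the doses. These lists were chosen with the study's hedgehog result known.

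Among the ligands, Ihh, the signal of maturing chondrocytes, was at 26.9, 49.1, 35.6 and 35.4 CPM with DMSO, 95.8, 101, 115 and 103 CPM with 1 µM and 144, 148, 119 and 111 CPM with 10 µM. It rose between DMSO and 1 µM (log2 fold change 1.49, SE 0.13, adjusted p = 0.000447). The further rise at 10 µM was called (log2 fold change 0.36, SE 0.089, adjusted p = 0.0421), but the dose groups overlapped, and the call was kept in 1 of the 8 fits that left out a library, that without 10 µM replicate 4 (adjusted p up to 0.143 in the others). Shh, the ligand of the posterior limb margin, was at 1.96, 1.07, 1.01 and 0.89 CPM with 1 µM and 1.05, 0.112, 1.47 and 0.699 CPM with 10 µM, levels too low and too variable to show a difference (log2 fold change -0.53, SE 0.57, adjusted p = 0.699). Dhh was below the filter.

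Ptch1, the receptor and the classic readout of the pathway (chr13:63511533-63565520, minus strand), was at 93.3, 91.3, 64.7 and 74.2 CPM with DMSO, 35.3, 25.9, 23.3 and 25.4 CPM with 1 µM and 20.4, 22.6, 20.9 and 24 CPM with 10 µM. It fell with the first dose (log2 fold change -1.57, SE 0.15, adjusted p = 0.000657). No further difference was called between the doses (log2 fold change -0.30, SE 0.14, adjusted p = 0.276), where the 10 µM range overlapped the 1 µM range. Hhip, a decoy receptor induced by the pathway, also fell with 1 µM and was not called between the doses, with 5.7, 5.04, 6.32 and 7.95 CPM at 1 µM and 4.77, 2.47, 6.47 and 3.31 CPM at 10 µM (log2 fold change -0.52, SE 0.28, adjusted p = 0.362; -1.62, adjusted p = 0.0268 for 1 µM against DMSO).

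Of the 11 tested receptors and co-receptors 1 rose and 1 fell, beside 2.98% of all genes called. Among the co-receptors, Scube3, a secreted carrier of the ligand, rose by 0.36 (adjusted p = 0.0419), and Cdon and Gas1, which present it to Patched, were 0.24 and 0.31 higher without passing (adjusted p = 0.112 and 0.0887). Scube3 lost its call without any single library but 10 µM replicate 2 and 1 µM replicate 4 (up to 0.138), whereas Cdon passed without 1 µM replicate 2 (0.0261) and Gas1 without 1 µM replicate 4 (0.0274).

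No signal transducer passed. Of 12 tested, 0 were called by edgeR between the doses, with log2 fold changes from -0.19 (Prkaca, the kinase that restrains Gli) to 0.26 (Evc2, of the cilium base), and 0.046 for Smo itself (SE 0.069). The zinc finger factors Gli2 and Gli3 differed by -0.014 (SE 0.069) and 0.058 (SE 0.079).

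Gli1, the amplifier of the pathway and its most responsive target (chr10:127329889-127341589, minus strand), was at 97.9, 138, 95.2 and 91.8 CPM with DMSO, 33.9, 12.5, 9.88 and 11.4 CPM with 1 µM and 2.76, 2.47, 0.122 and 1.46 CPM with 10 µM. Every 10 µM library was below every 1 µM library, and every 1 µM library below every DMSO library. The doses differed by the largest log2 fold change of any hedgehog gene (log2 fold change -3.27, SE 0.74, adjusted p = 0.0771), yet without passing the threshold. Its difference between 1 µM and DMSO did not pass either in the edgeR fit without the block (log2 fold change -2.64, SE 0.44, adjusted p = 0.245). Within the groups, 1 µM replicate 1 was the highest and 10 µM replicate 3 the lowest by far. With the replicate block, which takes account of such shared deviations, Gli1 was called (log2 fold change -3.31, adjusted p = 0.00413).

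Other targets were intermediate. Ccnd1, cyclin D1, was at 152, 179, 202 and 219 CPM with DMSO, 123, 96.3, 97.2 and 113 CPM with 1 µM and 65.3, 70.8, 66 and 78.8 CPM with 10 µM, with no overlap of the 3 groups (log2 fold change -0.58, SE 0.093, adjusted p = 0.00526 between the doses). Its call was kept in all 17 alternatives. Bcl2, the survival factor, was at 40.2, 33.2, 38.7 and 32.8 CPM with 1 µM and 27.6, 24.4, 28.8 and 28 CPM with 10 µM (log2 fold change -0.39, SE 0.10, adjusted p = 0.0594; adjusted p = 0.0437 with the block and 0.0497 without 1 µM replicate 2). Pthlh, which keeps chondrocytes dividing, was at 7.66, 5.1, 6.8 and 6.51 CPM with 1 µM and 4.47, 3.65, 3.54 and 4.01 CPM with 10 µM (log2 fold change -0.71, SE 0.20, adjusted p = 0.0774). A search for the Gli consensus GACCACCCA in the 250 bases upstream gave no match in the 7 targets with an entry (0.3% of all symbols had one), which says only that these letters are not in this window.

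**Figure D3:**
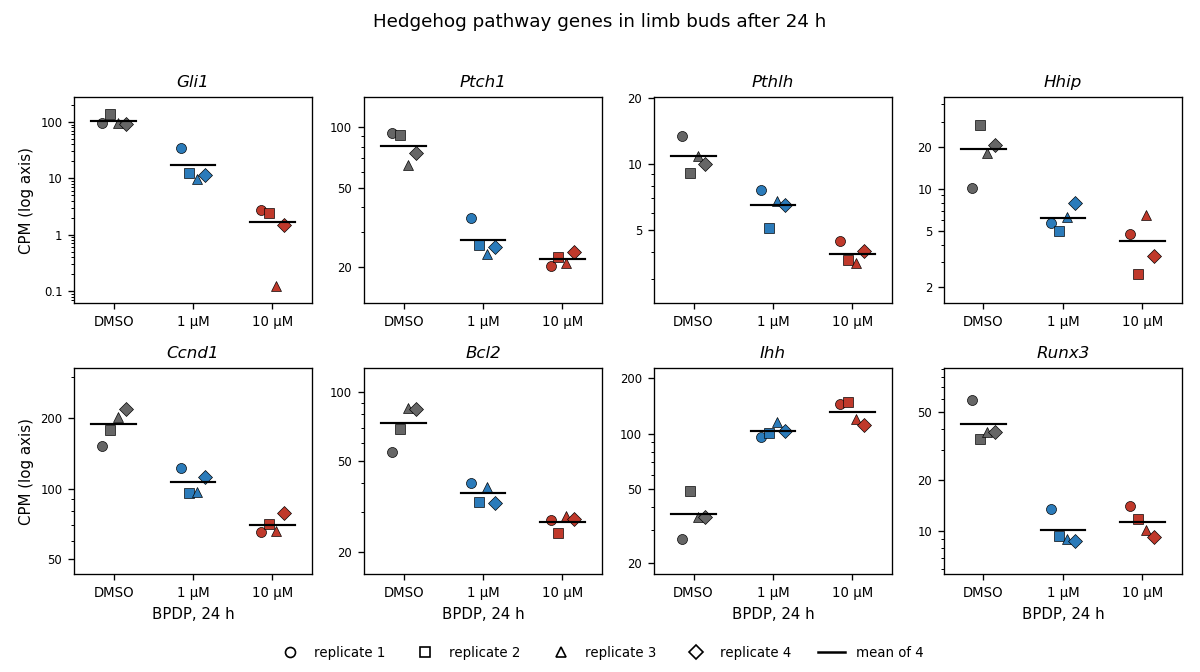
Level in CPM on a log axis for 8 genes of the hedgehog pathway and its skeletal context at 24 h, with 1 point per library and a line at the mean of 4. Gli1, Pthlh, Ccnd1 and Bcl2 are separated in the order DMSO, 1 µM, 10 µM, while Ptch1, Hhip and Runx3 overlap between the 2 doses.

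In the growth plate loop around Ihh and Pthlh, 3 of 8 genes rose between the doses, Ihh, Pth1r and Fgfr3, and 1 fell, Bmp7, beside 2.98% of all genes called. Pth1r, the receptor of Pthlh, was at 208, 185, 202 and 182 CPM with 1 µM and 235, 258, 221 and 229.6 CPM with 10 µM (log2 fold change 0.31, SE 0.074, adjusted p = 0.0391). Fgfr3, a brake on chondrocyte division, rose by 0.33 (SE 0.081, adjusted p = 0.0416), and Bmp7, a bone morphogenetic protein, fell by 0.44 (SE 0.10, adjusted p = 0.0325). These 3 calls were close to the threshold, since that of Pth1r was lost without any single library but 1 µM replicates 1 and 2, that of Fgfr3 without any but 1 µM replicates 2 and 4, and that of Bmp7 without any but 1 µM replicate 2. The highest adjusted p in these fits was 0.129.

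Of the cartilage list 1 of 21 was called, Fgfr3 (median 0.07), and of 14 genes of hypertrophic cartilage and bone 1 was called, Pth1r (median -0.076; 4 called with the block). Of 22 genes of BMP and TGF-beta signalling 1 was called, Bmp7 (4 with the block). Over all genes tested, 2.98% were called without the block (459 genes), and 736 genes were called with it. Sox9, the master factor of cartilage, differed by 0.019 (SE 0.092) and Col2a1, its main collagen, by 0.29 (SE 0.11, adjusted p = 0.175). Runx2, the factor of hypertrophy and bone, differed by -0.067 (SE 0.15). Runx3, its partner in hypertrophy, which fell with 1 µM against DMSO (-2.08, adjusted p = 0.00119), was at 13.6, 9.34, 9.03 and 8.78 CPM with 1 µM and 14, 11.9, 10.1 and 9.22 CPM with 10 µM, with no difference called (log2 fold change 0.18, SE 0.18, adjusted p = 0.693). Runx3 was picked after its values were seen. Col10a1, the collagen of hypertrophic cartilage, was at 195, 211, 80.1 and 54.3 CPM with 1 µM and 141, 167, 46.8 and 35.6 CPM with 10 µM. Replicates 1 and 2 were high and replicates 3 and 4 low in both groups. The difference was not called (log2 fold change -0.46, SE 0.71, adjusted p = 0.82), and with the replicate block it was (log2 fold change -0.51, adjusted p = 0.00298), each 10 µM library being below the 1 µM library of the same number.

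Some genes of the skin covering had large folds with wide spread. Of the 18 epidermal markers 1 fell, beside 1.61% of all genes, and 4 were called with the block, which called 736 genes in all. The 1 that fell without the block was Grhl3, a factor of the skin barrier, at 17.9, 10.7, 27.6 and 19.8 CPM with 1 µM and 9.29, 8.77, 9.28 and 5.79 CPM with 10 µM (log2 fold change -1.16, SE 0.24, adjusted p = 0.0292). Its call was lost without any single library but 1 µM replicate 2 (adjusted p up to 0.0836). The summed level of the list was 1895 to 3981 CPM with 1 µM and 1315 to 2081 CPM with 10 µM. Krt1, a keratin of the outer layers that was picked after its values were seen, was at 470.0, 149.8, 681 and 158 CPM with 1 µM and 20.2, 63.4, 102 and 33.1 CPM with 10 µM. Replicates 1 and 3 of 1 µM were the high ones, and despite groups that did not overlap the test did not pass (log2 fold change -2.69, SE 0.77, adjusted p = 0.147).

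The 12 largest falls by the naming rule included, besides C1qa, C1qb, Cx3cr1, Ms4a6b, Apoc1 and P2ry6, the genes Ly6g6c (-3.88, adjusted p = 0.021), Endou (-2.46, adjusted p = 0.0478), Gabrp, a GABA receptor subunit (-2.30, adjusted p = 0.0247), Upk1b, a uroplakin (-2.17, adjusted p = 0.0105), Pou2f3, a POU factor of epithelia (-2.13, adjusted p = 0.0144), and Lypd3 (-2.08, adjusted p = 0.0292). Lypd3, for instance, was at 21.9, 9.87, 25.2 and 9.9 CPM with 1 µM and 4.47, 4.5, 4.46 and 1.97 CPM with 10 µM. In Lypd3 and in Ly6g6c, Endou, Gabrp, Upk1b and Pou2f3, 1 µM replicates 1 and 3 were the highest of their group, as in Krt1. These falls are measured from 1 µM, not from DMSO. With DMSO, Ly6g6c was at 14.4 CPM in replicate 3 and at only 0.2 to 2.11 CPM in the others. Upk1b kept its call without each library in turn. That of Ly6g6c was lost without 10 µM replicate 1 or 1 µM replicate 1 or 3 (adjusted p up to 0.0792), that of Pou2f3 without 10 µM replicate 1, 2 or 4 (up to 0.0662), and that of Lypd3 without 10 µM replicate 1, 2 or 3 or 1 µM replicate 1 (up to 0.0894). Gabrp lost it without 10 µM replicate 2, 3 or 4 or 1 µM replicate 1 or 3 (up to 0.0856), and Endou without any single library but 1 µM replicates 2 and 4 (up to 0.159).

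The 12 largest rises were led by Trim66, a TRIM-family protein, at 1.61, 2.08, 2.02 and 2.84 CPM with 1 µM and 10.7, 5.96, 18.4 and 12.8 CPM with 10 µM (log2 fold change 2.52, SE 0.32, adjusted p = 0.00178). Besides Trib3, Gdf15, Slc7a3, Fgf21, Chac1 and Hrk, described above, they included Adm2, the peptide intermedin (1.74, adjusted p = 0.0219), P2rx3, an ATP-gated channel (1.91, adjusted p = 0.0325), Adcyap1, the neuropeptide PACAP (1.61, adjusted p = 0.0455), Apobr, a lipoprotein receptor (1.44, adjusted p = 0.0346), and Epgn, an EGF-family ligand (1.33, adjusted p = 0.0274). For Adm2 the 10 µM libraries had 4.02, 3.99, 5.31 and 3.12 CPM, the 1 µM libraries 0.518, 1.34, 1.17 and 2 CPM and DMSO 5.5, 1.47, 1.74 and 1.65 CPM, so that DMSO replicate 1 was above the 10 µM libraries. The calls of Adm2, P2rx3, Adcyap1, Apobr and Epgn were lost without 10 µM replicate 1 and without 1 µM replicates 1 and 3, among others, with adjusted p up to 0.136.

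Vessel genes gave 2 falls among 14 (5 called with the block), Cdh5, the endothelial cadherin (81.1, 68.5, 69 and 63.4 CPM with 1 µM, 40.1, 52.3, 38.7 and 49.5 CPM with 10 µM, log2 fold change -0.62, SE 0.11, adjusted p = 0.00927), and Esam, an endothelial adhesion molecule (log2 fold change -0.71, SE 0.11, adjusted p = 0.00493). The summed level of the 14 was 426.6 to 513.9 CPM with 1 µM and 354.4 to 426.1 CPM with 10 µM, so that the ranges just failed to overlap. Of 25 tested muscle genes 1 fell (6 called with the block), Neb, the giant thin-filament protein nebulin (-0.41, adjusted p = 0.0325, groups overlapping), with a median of -0.36 over the list. Neb lost its call without any single library but 1 µM replicate 4 (adjusted p up to 0.117). Over all genes tested, 1.61% were lower without the block (248 genes), and 424 genes were lower with it. The lists for red blood cells, Schwann cells and glia, and neutrophils and cytokines had 0 of 8, 0 of 9 and 0 of 6 tested genes called by edgeR (medians 0.033, -0.13 and 0.83).

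The counts that follow stand beside 2.98% of all genes called and 1.37% higher, so a single call in a list does not set that list apart. Of 25 genes of cholesterol synthesis and its control 3 were called, all higher, among them Insig1, a brake on sterol synthesis (0.39, adjusted p = 0.0415), and Lss, lanosterol synthase (0.32, adjusted p = 0.0433), with a median of 0.12. Within replicates 1 and 2 alone none of the 25 was called by edgeR, and within replicates 3 and 4 alone 8. Leaving out any single library but 1 µM replicate 2 gave 0 to 2 calls (0 without 10 µM replicate 1 or 3), and without that one 5. Lss lost its call in each of the 8 fits that left out a library (adjusted p up to 0.131), and Insig1 in all but that without 1 µM replicate 2 (up to 0.121). Of 15 immediate early genes, Jund (0.42, adjusted p = 0.0127) and Dusp1, a MAP kinase phosphatase (0.73, adjusted p = 0.016), rose, the latter not called without 10 µM replicate 1 or 2 or 1 µM replicate 3 (up to 0.0638). Of 13 clock genes, Dbp (0.59, adjusted p = 0.0375) and Tef (0.38, adjusted p = 0.0312), related clock-output factors, rose. Dbp lost its call without any single library but 1 µM replicate 4 (up to 0.104), and Tef without 10 µM replicate 1, 2 or 4 or 1 µM replicate 1 (up to 0.0991). Frzb, a Wnt antagonist of cartilage, was the 1 of 24 Wnt genes that rose (0.43, adjusted p = 0.0376), and Adamts1, a protease of the matrix, the 1 of 13 tested matrix proteases (0.43, adjusted p = 0.0226). Frzb lost its call without any single library but 10 µM replicate 3 and 1 µM replicate 2 (up to 0.131), and Adamts1 without 10 µM replicate 1, 2 or 4 or 1 µM replicate 1 or 3 (up to 0.0826). With the block, which called 736 genes in all and not 459, 4 Wnt genes and 5 proteases were called. No gene was called by edgeR in the lists for glycolysis and hypoxia (25 tested, median -0.10), Notch (13, median -0.06), FGF feedback (17, median -0.03), limb patterning (31, median 0.06), joint and tendon (16, median 0.04), retinoic acid (11, median -0.20), fatty acid synthesis (10, median 0.02) and ribosomal proteins (20, median 0.08). Within replicates 3 and 4 alone 14 of the 20 ribosomal protein genes were called, and 5 of the 25 glycolysis and hypoxia genes were called without 1 µM replicate 4.

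**Figure D4:**
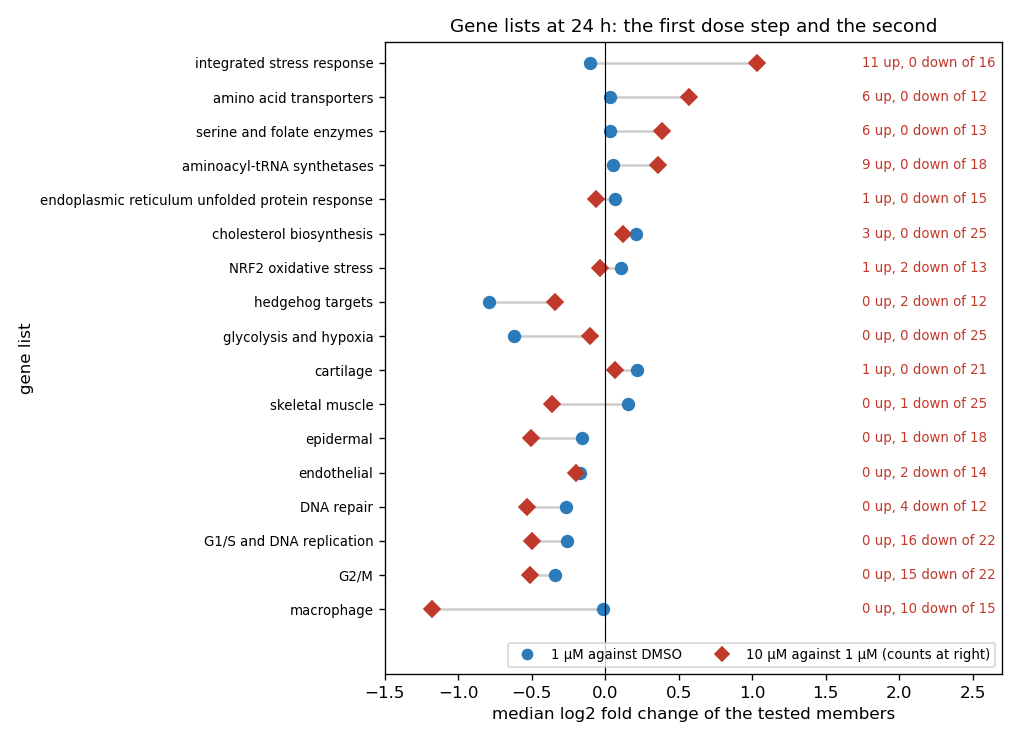
Median log2 fold change of 17 gene lists at 24 h for 1 µM against DMSO (circles) and for 10 µM against 1 µM (diamonds), with the number of members called in the second comparison at the right. Both comparisons use the 1 µM libraries. The diamonds of the stress response (1.03) and the macrophage list (-1.18) lie farthest from 0, and the circle of the hedgehog targets (-0.79) lies farther out than its diamond (-0.34).

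The same 2 doses were compared after 3 h to place the differences in time. Here 2 of 15409 genes were called (0.013%), both lower at 10 µM, and 1878 genes had an unadjusted p under 0.05. They were Dhrs3, which turns retinal back to retinol, at 61.1, 58.9, 64.2 and 58.9 CPM with 1 µM and 37.6, 38.2, 39.2 and 43 CPM with 10 µM (log2 fold change -0.72, SE 0.089, adjusted p = 0.00717), and Cyp1b1, a cytochrome P450 controlled by the aryl hydrocarbon receptor, at 26.6, 28, 29.1 and 32.8 CPM with 1 µM and 10.9, 9.04, 16.9 and 14.1 CPM with 10 µM (log2 fold change -1.29, SE 0.16, adjusted p = 0.00915). The count was 1 without 1 µM replicate 1 or 4 and 0 without 1 µM replicate 3 (edgeR, with 1215 genes at an unadjusted p under 0.05), and within replicates 1 and 2 it was 3, within 3 and 4 it was 16. Groups that did not overlap were found for 7.07% of genes at 3 h. Neither gene was called between the doses at 24 h (-0.29, adjusted p = 0.106 for Dhrs3; 0.057, adjusted p = 0.954 for Cyp1b1). Of the integrated stress response list, 0 of 16 were called by edgeR at 3 h, with a median of 0.22, and of the macrophage and G2/M lists 0 of 15 and 0 of 22, with medians of -0.16 and -0.0032. Of the amino acid transporters 0 of 12 were called by edgeR at 3 h, but all 12 were higher at 10 µM (median 0.22). Their summed level at 3 h was 1085 to 1248 CPM with 1 µM and 1374 to 1478 CPM with 10 µM, ranges that did not overlap. Other lists without a call at 3 h also leaned to one side. Ribosomal proteins had 0 positive and 20 negative log2 fold changes (median -0.29), and cholesterol synthesis had 3 and 22 (median -0.26).

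The difference between the 2 times was tested directly. The dose difference changed between 3 and 24 h for 74 of 16217 genes (0.456%), 31 with a more positive and 43 with a more negative difference at 24 h. With the block there were 161 such genes, within replicates 1 and 2 alone 1, and within replicates 3 and 4 alone 302. The count rose to 196 without 1 µM replicate 2 of 24 h. It fell to between 31 and 46 without 1 µM replicate 1, 2 or 3 or 10 µM replicate 3 or 4 of 3 h, and without 1 µM replicate 1 or 3 or 10 µM replicate 1 or 3 of 24 h. Of the macrophage list 5 of 15 were called, all more negative at 24 h, led by C1qa (difference -2.25, SE 0.27, adjusted p = 0.000516), Lyz2 (-1.83, adjusted p = 0.0183) and C1qb (-1.72, adjusted p = 0.00293). Of the 12 amino acid transporters, 8 had a positive and 4 a negative difference. Called were 3 of the 12, all more positive, among them Slc3a2 (1.01, SE 0.13, adjusted p = 0.000687) and Slc7a5 (1.02, adjusted p = 0.0183). Trib3 was the 1 of 16 stress response genes (1.98, adjusted p = 0.0487). From the G2/M list 4 of 22 and from the G1/S list 3 of 22 were called, all more negative, for example Plk1 (-0.73, adjusted p = 0.0146) and Rrm2 (-0.67, adjusted p = 0.0146). No gene of the 5 hedgehog lists was called by edgeR in this test, in which 1912 of all genes had an unadjusted p under 0.05. The other genes the rule named were Lamb3, a laminin chain of the skin basement membrane (1.23, adjusted p = 0.0487), Nefm, a neurofilament (1.38, adjusted p = 0.0138), and Smpdl3a (0.80, adjusted p = 0.0487), which were more positive, and Apoc1 (-2.27, adjusted p = 0.0251), C1qc (-1.66, adjusted p = 0.00207) and Naaladl1 (-1.71, adjusted p = 0.034), which were more negative.

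**Figure D5:**
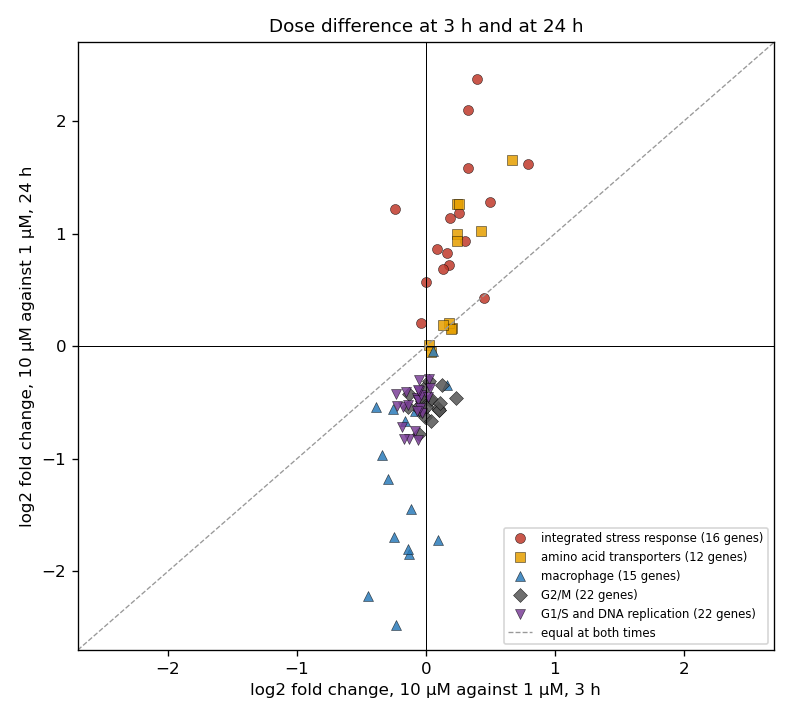
Log2 fold change of 10 µM over 1 µM BPDP at 3 h (horizontal axis) and at 24 h (vertical axis) for the tested members of 5 lists, 1 point per gene, with a dashed line where both are equal. At 3 h the points lie between -0.45 (Cx3cr1) and 0.79 (Fgf21), and at 24 h they extend from -2.48 (C1qa) to 2.38 (Trib3).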

How the data were processed

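Poly-A RNA of 24 cultures was sequenced, 4 in each of 6 groups. Read counts per gene and library were deposited by the authors. The submitters' processing notes name CASAVA 1.8, STAR 2.5, HTSeq 0.6.1, DESeq2 (version given as 2) and the mm10 genome, without roles. Strand handling is not given in the sources used here, and neither is what a replicate is. The libraries appear in several deposited tables, and a library's counts were the same in each. The tables also hold FPKM values of the authors (40 columns) and their log2 fold changes, p-values and group scores, which were not used. The count columns of the 2 dose groups were joined over 25844 genes, total counts being between 14165947 and 20823058 in the 24 libraries.

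Genes were filtered with filterByExpr (minimum count 10, minimum total 15), scaled by TMM and tested with edgeR 4.0.16 in R 4.3.3 (robust quasi-likelihood F-test, libraries of the groups compared only; limma 3.58.1). P-values were adjusted by Benjamini-Hochberg over all genes tested, and a gene was called at an adjusted p under 0.05. Levels are CPM, scaled by the total counts of each library. Standard errors are the log2 fold change divided by the square root of F. The dose by time difference was an interaction term over 16 libraries. The fits for the doses against DMSO share libraries with the main one.

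Libraries with the same number deviated together in both dose groups at 24 h (correlations of 0.197 to 0.342 in 4 of 4 pairs, 3 of 4 highest with their own number), so the numbers were taken to pair them. The fit with a replicate block is given where it changes a call between the doses at 24 h. For single genes and lists against DMSO, at 3 h and in the dose by time difference, only the fit without the block is given. Those tests leave any pairing out. At 3 h the correlations were 0.12 to 0.311, but only 1 of 4 was highest with its own number. For 1 µM and DMSO at 24 h they were 0.153 to 0.344 (4 of 4), and for 10 µM and DMSO 0.14 to 0.361 (3 of 4). The lowest chi-square per degree of freedom between 2 libraries of a group was 4.7, so none was taken for a copy of another.

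Members and gene lists were chosen with earlier results of these data known. Genes were named by a rule: the 12 largest rises and the 12 largest falls that were called, did not overlap between the groups and averaged 50 counts or more in the group where they were higher (predicted genes left out); hedgehog genes; from other lists, the called members with the smallest p, 5 at most; and 6 at most in each direction for 3 h and for the dose by time difference. Results for some items that the rule would name are not reported here. Genes outside the rule are marked as picked after their values were seen. Promoters are from RefSeq (GRCm38.p6), matched by symbol. The 4 listed genes Cnmd, Snorc, Adgre1 and Epb42 had no row under these symbols. Alternatives were DESeq2 1.42.0, its size factors in edgeR, no filter, a mean of at least 20 counts, the replicate block, a term for replicates 1 and 2 against 3 and 4, each pair of replicates alone, 1 fit of all 24 libraries, and leaving out each library.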

Additional observations from a re-analysis of the deposited data

Results flagged for a closer look

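In 122 genes and 3 groups of 4 libraries at 24 h, 24 of 366 gene and group pairs had a highest or lowest library so far from the others that its gap to the nearest exceeded Dixon's critical share of the group's range for 4 samples. Chance flags about 1 in 20 such groups.

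DMSO replicate 1 was far above its group in Slc3a2 (163 CPM, the others 97.7 to 107), Adm2 (5.5 CPM, the others 1.47 to 1.74), Runx3 (58.6 CPM, the others 34.9 to 38.4), Dhrs3 (93.7 CPM, the others 58.3 to 63.1), Lamp2 (240 CPM, the others 177 to 187), Txnip (365 CPM, the others 164 to 185) and Dbp (28.4 CPM, the others 16 to 18.1). DMSO replicate 2 was far above its group in Gli1 (138 CPM, the others 91.8 to 97.9). DMSO replicate 3 was far above its group in Ly6g6c (14.4 CPM, the others 0.2 to 2.11). DMSO replicate 1 was far below its group in Pcna (75.8 CPM, the others 100 to 105). DMSO replicate 3 was far below its group in Gas1 (429 CPM, the others 589.9 to 605). 1 µM replicate 1 was far above its group in Gli1 (33.9 CPM, the others 9.88 to 12.5) and Runx3 (13.6 CPM, the others 8.78 to 9.34). 1 µM replicate 4 was far above its group in Stc2 (30.6 CPM, the others 14.7 to 16.4). 1 µM replicate 2 was far below its group in Tpx2 (41.4 CPM, the others 56.8 to 58.3). 1 µM replicate 3 was far below its group in Dhrs3 (43 CPM, the others 50.1 to 51.5). 10 µM replicate 1 was far above its group in Neb (92 CPM, the others 77.9 to 78.4). 10 µM replicate 2 was far above its group in C1qb (10.2 CPM, the others 5.99 to 6.58) and C1qc (10.6 CPM, the others 6.23 to 6.8). 10 µM replicate 2 was far below its group in Rrm2 (24.4 CPM, the others 30.7 to 31), Herpud1 (72.5 CPM, the others 85.3 to 87) and Aldh18a1 (121 CPM, the others 148 to 153). 10 µM replicate 4 was far below its group in Grhl3 (5.79 CPM, the others 8.77 to 9.29) and Lypd3 (1.97 CPM, the others 4.46 to 4.5).

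For 28 of the 122 genes the difference between 10 and 1 µM changed between 3 and 24 h at an adjusted p under 0.05 in edgeR's interaction test. Over all genes tested it was 74 of 16217 (0.456%). Many of the 122 were named because they were called at 24 h or in this same test. Their share therefore cannot be set against that of all genes. The log2 difference was more positive at 24 h for Trib3 (1.98), Nefm (1.38), Lamb3 (1.23), Slc7a5 (1.02), Slc3a2 (1.01), Smpdl3a (0.80), Slc7a1 (0.75), Sars (0.58), Lss (0.58), Jund (0.57) and Lamp2 (0.52). It was more negative at 24 h for Apoc1 (-2.27), C1qa (-2.25), Lyz2 (-1.83), C1qb (-1.72), Naaladl1 (-1.71), C1qc (-1.66), Fanca (-1.51), Csf1r (-1.46), C3ar1 (-1.36), Arrdc4 (-1.09), Brca1 (-1.01), Stab1 (-0.97), Esam (-0.76), Plk1 (-0.73), Tyms (-0.70), Rrm2 (-0.67) and Prc1 (-0.54).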

How the results depend on the processing

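Of the 98 named genes called between the doses at 24 h, 0 changed direction under any of the 17 alternatives, 28 kept their call in all of them, and 53 kept it in all 8 fits that left out a library. With the replicate block 94 kept it, and Trib3, Asns, Mthfd2 and Cx3cr1 lost it, while Stc2, Gli1, Bcl2 and Col10a1 gained one. The block changed no other call of a named gene. Depth limits the genes near or below 1 CPM, such as Shh. The cause of the shifts in count was not tested.

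The count of 459 genes between the doses at 24 h was 1000 with DESeq2 (454 shared), 736 with the replicate block, 740 with a term for the replicate pairs, 187 within replicates 1 and 2 (90 shared) and, leaving out a library, 151 to 617. Higher genes were 211 of 459, but 263 of 427 within replicates 3 and 4 and 203 of 559 in 1 fit of all 24 libraries. At 3 h the count of 2 became 7 with DESeq2, 4 without a filter, 4 with the term for the pairs, 16 within replicates 3 and 4, 0 in 1 fit of all libraries (edgeR; 1385 at an unadjusted p under 0.05) and 0 to 2 without a library. For 1 µM against DMSO, 12 became 60 with DESeq2, 0 within replicates 1 and 2 (edgeR; 1084 at an unadjusted p under 0.05), 29 within replicates 3 and 4, 95 in 1 fit and 7 to 12 without a library (7 without DMSO or 1 µM replicate 4). For 10 µM against DMSO, 963 became 1574 with DESeq2, 1645 with the block, 6 within replicates 1 and 2, 1870 in 1 fit and 491 to 1242 without a library. The dose by time count of 74 became 308 with DESeq2, 114 without a filter, 161 with the block, 194 with the term for the pairs, 1 within replicates 1 and 2, 302 within replicates 3 and 4, 38 in 1 fit and 31 to 196 without a library.

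Among genes that were not called, the log2 fold change turned its sign for Gli2 (0.067 within replicates 1 and 2, 0.018 without 1 µM replicate 4, 0.032 without 10 µM replicate 3; with a library left out, lowest -0.038 without 10 µM replicate 2), Cyp1b1 (-0.16 within replicates 1 and 2, -0.056 without 1 µM replicate 1, -0.21 without 10 µM replicate 3; with a library left out, highest 0.24 without 10 µM replicate 1), Shh (0.27 within replicates 3 and 4), Sox9 (-0.0019, -0.032 and -0.037 without 1 µM replicate 1, 1 µM replicate 3 and 10 µM replicate 2; with a library left out, highest 0.091 without 1 µM replicate 2) and Runx2 (0.058 and 0.055 without 1 µM replicate 2 and 10 µM replicate 4; with a library left out, lowest -0.17 without 10 µM replicate 2).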

Other observations

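Some further genes were picked after their values were seen, and their tests are the edgeR tests over all genes. Lamp2, a lysosomal membrane protein, was at 182, 215, 222 and 211 CPM with 1 µM and 284, 299, 302 and 317 CPM with 10 µM (log2 fold change 0.56, SE 0.075, adjusted p = 0.00165). Neu1, the lysosomal sialidase, was at 20.7, 21.9, 26.3 and 28.2 CPM with 1 µM and 36.6, 35.2, 32.6 and 37.3 CPM with 10 µM (log2 fold change 0.57, SE 0.10, adjusted p = 0.0108). Flcn and Fnip1, partners that sense amino acids at the lysosome, were higher as well (0.69, adjusted p = 0.00194 for Flcn; 0.63, adjusted p = 0.00106 for Fnip1). Pck2, a mitochondrial enzyme of the gluconeogenic route, rose by 0.66 (adjusted p = 0.00205).

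Txnip, which slows glucose uptake, was at 365, 164, 178 and 185 CPM with DMSO, 174, 151, 167 and 194 CPM with 1 µM and 116, 101, 86 and 112 CPM with 10 µM (log2 fold change -0.70, SE 0.092, adjusted p = 0.00165). Its relative Arrdc4 fell as well (-1.20, adjusted p = 0.00209). Dct, a melanocyte enzyme, was at 2.77, 1.61, 2.81 and 1.28 CPM with 1 µM and 0, 0.225, 0.183 and 0.254 CPM with 10 µM (log2 fold change -3.64, SE 0.61, adjusted p = 0.00734), and 1 library at 10 µM had 0 counts. The macrophage genes C3ar1 (-1.68, adjusted p = 0.00165), Stab1 (-0.94, adjusted p = 0.0019) and Mpeg1 (-0.85, adjusted p = 0.0019), which were not in the marker list, fell. Fabp5, a fatty acid carrier of skin and macrophages, fell by 0.87 (adjusted p = 0.00165). Cytl1, a cytokine of cartilage, was at 179, 234, 204 and 203 CPM with 1 µM and 167, 163, 135 and 157 CPM with 10 µM (log2 fold change -0.37, SE 0.089, adjusted p = 0.0383), with an adjusted p up to 0.114 when a library was left out, and a call without 1 µM replicate 1 or 2.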
